A study of Homo sapiens with 6 samples.

Results

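The signal recognition particle is examined here through 10 genes, out of 63677 genes in the deposited table, measured in the human myeloma line KMS27. They are 2 genes of its RNA (RN7SL1 and RN7SL2), 6 genes of its proteins (SRP9, SRP14, SRP19, SRP54, SRP68 and SRP72) and 2 genes of its receptor (SRPR and SRPRB). Members were found by gene symbol, and the TPM of their transcripts was summed per gene. TPM is an abundance per transcript length, relative to all transcripts of a library. The RNA genes were picked because they took a larger share of TPM in HA-TAZ libraries than in controls, that is, they were chosen by the same contrast that is described below. Every comparison of the members between these groups is therefore a description. No p-value of a member is printed, and counts of members past a threshold stand beside the share of all genes and support nothing. All 10 members passed the filter on low values, a mean of at least 1 TPM over the 6 libraries.

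KMS27 is a cultured line derived from multiple myeloma, a cancer of plasma cells. The 2 groups, of 3 libraries each, are wild type and HA-TAZ, in which cells carried the coactivator TAZ (gene WWTR1) with an HA peptide tag. Total RNA depleted of ribosomal RNA was sequenced. The labels name no vector, promoter or clone, and the wild type titles carry HA too. The control columns are headed scr, a name found in no label, and were taken as wild type by elimination. In the text these are controls a, b and c, since their numbers could not be tied to single wild type samples. WWTR1 was at 293 to 306 TPM with HA-TAZ and at 1.69 to 2.69 TPM without it. Each library sums to the same TPM, so its depth was unknown. All 10 plasma cell and myeloma markers had a mean of at least 1 TPM, as did 0 of 4 B cell, 0 of 5 T and NK cell, 0 of 3 erythroid, 1 of 4 myeloid (CSF1R) and 3 of 6 stromal and epithelial markers (VIM, PECAM1 and COL1A1). VIM, which many cultured cells express, made up most of the last sum, 508 to 563 TPM with HA-TAZ and 433 to 466 TPM in controls. Summed plasma cell markers were at 2825 to 3262 TPM with HA-TAZ and at 4308 to 4877 TPM in controls, most of it IGJ, at means of 2457 and 3792 TPM. SLAMF7 was higher with HA-TAZ instead (7.01 against 3.93 TPM), and SDC1 and POU2AF1 overlapped. The part of these markers in the results below was not tested. No label says that the libraries of a group came from separate cultures, so p-values measure only the spread between these libraries, which may be technical.

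The signal recognition particle is a complex of 7SL RNA and proteins that binds the signal sequence of a secreted or membrane protein as it leaves the ribosome. It slows translation and brings the ribosome to its receptor on the endoplasmic reticulum, where the chain enters the translocon. SRP9 and SRP14 sit on the Alu domain of the RNA and act in the slowing of translation, while SRP19, SRP54, SRP68 and SRP72 sit on the S domain, which recognises the signal. RNA polymerase III transcribes 7SL RNA, and plasma cells, which secrete immunoglobulin, rely on this route.

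The human genome holds several 7SL genes and many copies that resemble them, so the identity of the RNA is set by a few bases. By their transcripts in GENCODE release 29, RN7SL2 was 98.3% identical to RN7SL1 and RN7SL3 was 97.7% identical. Of the 269 distinct 31-base words of RN7SL1, 5 occurred in no other RN7SL gene of GENCODE 29. RN7SL2 had 17 such words of 270 and RN7SL3 had 77 of 269. Most of these RNAs therefore cannot be told apart by a short word, and the division of reads between them is an estimate by the quantifier. The gene and transcript IDs of RN7SL1 in the deposited tables are not those of GENCODE 29, and the submitters' processing notes name GRCh37, so these figures describe the genes and not the exact reference of the quantification. GENCODE 29 also places RN7SL1 inside RPS29 on the opposite strand, a ribosomal protein gene at a mean of 389 TPM. Whether strand was used in the quantification is not given in the sources used here, so values of overlapping genes are uncertain.

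Among the members, the 7SL RNAs were the highest by far. They were also the only members whose share of a library was higher in all HA-TAZ libraries than in all controls. Both were chosen by this contrast, and 4.41% of all 22651 genes that passed the filter lay above in the same way. RN7SL1 was at 80219, 75019 and 76409 TPM in HA-TAZ 1 to 3 and at 53520, 70453 and 66546 TPM in controls a to c. RN7SL2 was at 75015, 66321 and 79772 TPM in HA-TAZ 1 to 3, and at 39213, 55036 and 55791 TPM in controls a to c. The groups did not overlap for either gene, and control a was the lowest library for both. At the lower edge of the HA-TAZ group, RN7SL1 was 75019 TPM in HA-TAZ 2 against 70453 TPM in control b.

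Together the 2 RNA genes made up 15.5%, 14.1% and 15.6% of all TPM in HA-TAZ 1 to 3 and 9.27%, 12.5% and 12.2% in controls a to c. The ratio of the group means was 1.33. A share of TPM states relative abundance: fewer cells of a kind and less RNA per cell cannot be told apart in bulk RNA, and the rise of 1 share lowers the others. By estimated counts implied by the authors' deposited table the 2 genes made up 1.98% of a typical library, against 13.2% of TPM, since TPM weights each read by the inverse of transcript length.

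To compare genes between libraries, TPM was divided by a factor per library, the median ratio of its genes to their mean over libraries. They came to 0.860, 0.961 and 0.884 for HA-TAZ 1 to 3, against 1.20, 1.08 and 1.05 for controls a to c, so this scaling raises every HA-TAZ value relative to controls. Without scaling the median log2 fold change of all 22651 tested genes was −0.27, with it −0.03. The direction of small differences between these groups therefore depends on the scale, and both are given for the members. Scaled TPM of RN7SL1 was 85908 ± 7597 (SD, n = 3) with HA-TAZ and 57632 ± 11369 (SD, n = 3) in controls, a log2 fold change of 0.59 (SE 0.30) in limma, a linear model that shares the error estimate across genes. Scaled TPM of RN7SL2 was 82142 ± 11462 (SD, n = 3) and 45509 ± 11209 (SD, n = 3), a log2 fold change of 0.87 (SE 0.31). Their sum had a log2 fold change of 0.72 (SE 0.36), which was 0.42 with TPM as deposited and 0.52 without control a.

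Ratios between genes of the same library need no scaling. Their groups do not depend on the factors, though both terms belong to the members chosen. RN7SL1 over RN7SL2 was 1.07, 1.13 and 0.958 in HA-TAZ 1 to 3 and 1.37, 1.28 and 1.19 in controls a to c. RN7SL1 was thus the higher RNA in every control, the groups did not overlap, and the log2 ratio differed by −0.28 against a pooled SD of 0.11. The shift was larger for RN7SL2 than for RN7SL1, within the limit set by their shared words.

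**Figure D1:**
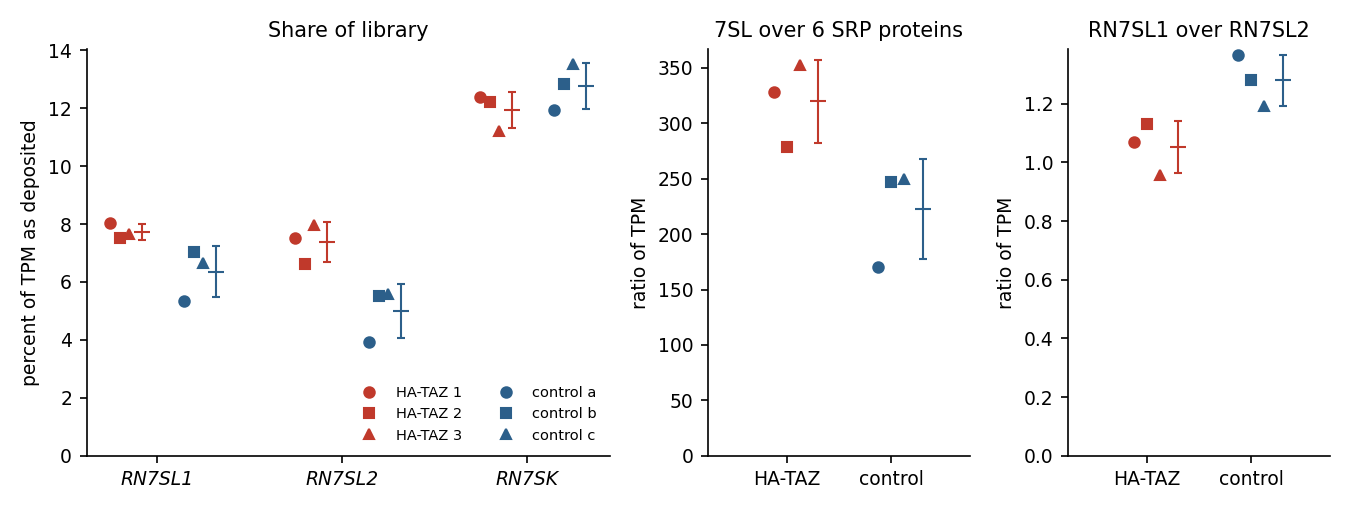
Share of deposited TPM (percent) of RN7SL1, RN7SL2 and RN7SK in each library, the ratio of RN7SL1 plus RN7SL2 to the 6 SRP protein genes, and the ratio of RN7SL1 to RN7SL2, with bars for mean ± SD (n = 3). The HA-TAZ points of both 7SL genes lie above all controls, while those of RN7SK, 11.2 to 12.4%, overlap the controls at 11.9 to 13.5%.

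RN7SK, another abundant RNA of polymerase III that restrains the elongation factor P-TEFb, served as a second comparison within the library. It took 12.4%, 12.2% and 11.2% of TPM in HA-TAZ 1 to 3 and 11.9%, 12.8% and 13.5% in controls a to c, and the groups overlapped. The ratio of the 2 7SL genes to RN7SK was 1.25, 1.16 and 1.39 in HA-TAZ 1 to 3 and 0.777, 0.977 and 0.905 in controls a to c. The 7SL genes were thus above RN7SK in every HA-TAZ library and below it in every control. The shift was not particular to 7SL among RNAs of polymerase III. RMRP, the RNA of RNase MRP, had a ratio of group means of 1.35 as TPM without overlap, against 1.33 for the 7SL genes.

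The RNA was compared with the transcripts of the proteins it assembles with. RN7SL1 plus RN7SL2 over the 6 SRP protein genes was 328, 279 and 353 by TPM in HA-TAZ 1 to 3 and 170, 247 and 250 in controls a to c. The log2 ratio was higher by 0.54 in HA-TAZ libraries, against a pooled SD of 0.25, and the groups did not overlap. Leaving out 1 library at a time gave 0.36 to 0.64, with the lowest value without control a. By estimated counts implied by the authors' deposited table the RNA genes exceeded the protein genes 25.0-fold, so the size of the ratio, unlike its comparison between libraries, rests on length.

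The genes of the Alu-domain proteins were the most abundant of the 8 protein and receptor genes. SRP9 was at 181, 196 and 173 TPM in HA-TAZ 1 to 3 and at 206, 187 and 186 TPM in controls a to c. As TPM its groups overlapped, and scaled TPM was 203 ± 7.12 (SD, n = 3) against 174 ± 2.64 (SD, n = 3), a log2 fold change of 0.23 (SE 0.04) by limma, which turned to −0.07 without scaling. SRP14, its partner in the heterodimer, was at 121, 123 and 107 TPM in HA-TAZ 1 to 3 and at 121, 118 and 113 TPM in controls a to c. Its group means were equal to 3 digits as TPM, 117 each, and 130 ± 9.88 against 105 ± 4.43 scaled (SD, n = 3), a log2 fold change of 0.30 (SE 0.07). The pair kept its proportion, with SRP9 over SRP14 at 1.50 to 1.62 with HA-TAZ and 1.59 to 1.71 in controls, which overlapped.

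The genes of the S-domain proteins differed less on the scaled values. SRP19, which prepares the RNA for SRP54, was at 40.0, 38.9 and 36.6 TPM in HA-TAZ 1 to 3 and at 51.2, 51.1 and 44.6 TPM in controls a to c. Those groups did not overlap, but the scaled values did, at 42.8 ± 3.23 and 44.1 ± 2.70 (SD, n = 3), with a log2 fold change of −0.04 (SE 0.07). SRP54, the GTPase that binds the signal sequence, was at 24.2, 26.5 and 23.2 TPM in HA-TAZ 1 to 3 and at 35.1, 30.6 and 25.5 TPM in controls a to c. It overlapped on both scales, with a log2 fold change of 0.01 (SE 0.08), or −0.28 without scaling.

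SRP68 and SRP72 form the large heterodimer of the S domain. SRP68 was at 37.2, 41.4 and 37.8 TPM in HA-TAZ 1 to 3 and at 49.2, 44.1 and 44.5 TPM in controls a to c, lower without overlap. Its scaled values were 43.0 ± 0.278 and 41.3 ± 0.903 (SD, n = 3), higher without overlap by a log2 fold change of 0.06 (SE 0.04). SRP72 was at 69.7, 80.6 and 65.1 TPM in HA-TAZ 1 to 3 and at 82.4, 77.2 and 76.9 TPM in controls a to c, with a log2 fold change of 0.16 (SE 0.06) scaled and −0.14 as deposited. SRP68 over SRP72 overlapped between groups, at 0.514 to 0.580 and 0.571 to 0.597.

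The receptor genes were close to the SRP proteins in their differences. SRPR, the receptor's GTPase alpha subunit, was at 26.2, 28.5 and 26.6 TPM in HA-TAZ 1 to 3 and at 30.3, 29.1 and 28.7 TPM in controls a to c. Its scaled log2 fold change was 0.18 (SE 0.05), and −0.11 as deposited. SRPRB, the membrane-anchored beta subunit, was at 47.8, 53.5 and 52.6 TPM in HA-TAZ 1 to 3 and at 58.8, 51.0 and 54.2 TPM in controls a to c, with a log2 fold change of 0.21 (SE 0.05), and −0.09 as deposited. SRPR over SRPRB was 0.506 to 0.547 and 0.515 to 0.572, and the 6 SRP protein genes over the receptor genes were 5.59 to 6.39 and 5.91 to 6.34, with overlap in each case.

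Of all tested genes 7.29% passed the adjusted threshold of 0.05 by limma, 4.67% upward and 2.63% downward. Of the 8 protein and receptor genes, 1 (SRP9) passed upward and 0 downward. At an unadjusted p below 0.05 by limma there were 5 upward and 0 downward, against 3759 upward and 3200 downward of all 22651 tested genes. The median log2 fold change was 0.17, against −0.03 for all tested genes and 0.06 for the 11666 protein-coding genes. The median turned to −0.13 with TPM as deposited, and SRP9 lost its call when any 1 library was left out. By scaled TPM, 6 of the 8 genes had all HA-TAZ libraries above all controls, SRP19 and SRP54 overlapped, and 20.2% of tested genes lay above and 18.3% below in this sense. With TPM as deposited no gene of the 8 lay above and 3 lay below (SRP19, SRP68 and SRPR), where 4.41% of tested genes lay above and 43.6% below.

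**Figure D2:**
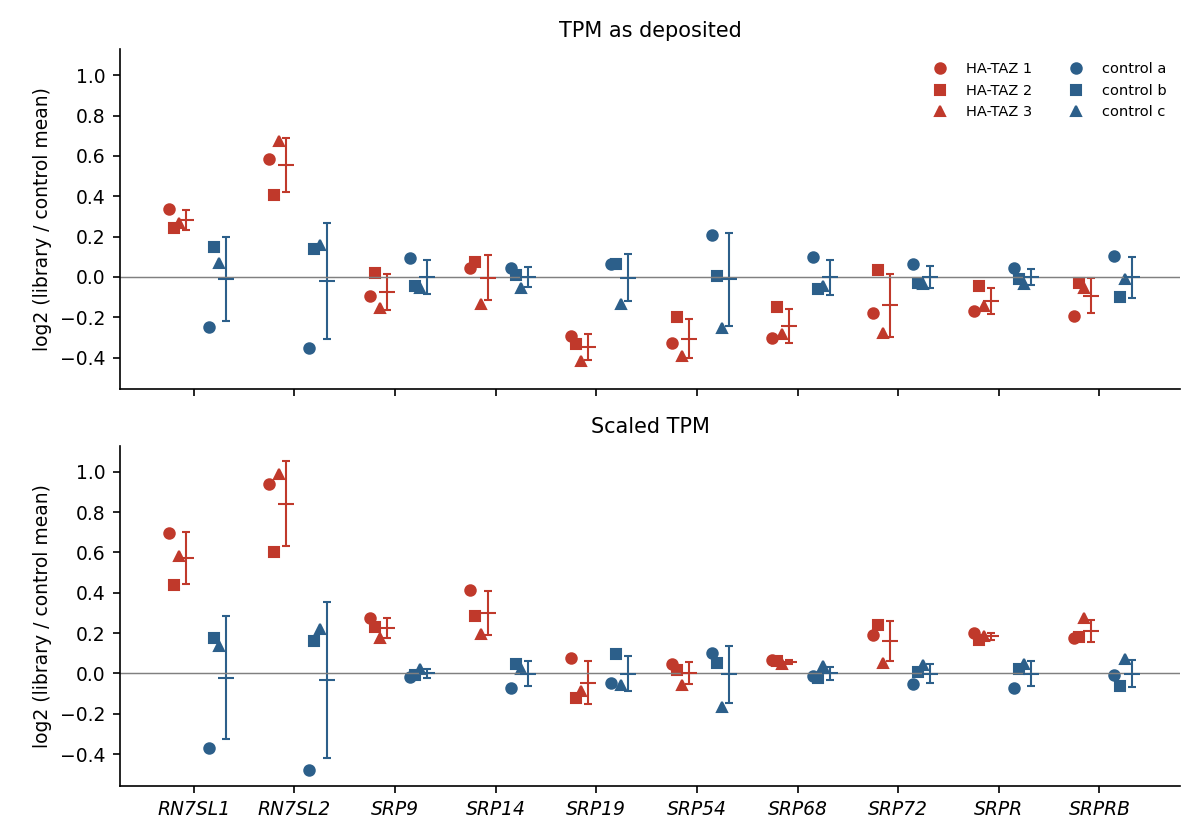
Log2 ratio of each library to the control mean for the 10 members, with TPM as deposited above and scaled TPM below; points are libraries and bars are mean ± SD (n = 3). The 7SL genes lie above 0 in all HA-TAZ libraries on both scales. Most protein and receptor genes have HA-TAZ means at or below 0 as deposited and above 0 scaled, while the mean of SRP19 is below 0 on both.

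By transcript TPM, the proportion of genes of Alu-domain proteins to those of S-domain proteins differed on any scale. Neither the proteins nor the assembled particle were measured. SRP9 plus SRP14 over SRP19, SRP54, SRP68 and SRP72 was 1.76, 1.70 and 1.72 in HA-TAZ 1 to 3 and 1.50, 1.50 and 1.56 in controls a to c. The groups did not overlap, and the log2 ratio differed by 0.19 against a pooled SD of 0.03. This grouping was chosen after the values had been seen. The order by TPM was the same in both group means for the 3 most abundant genes, SRP9, SRP14 and SRP72, and SRPR and SRP54, at 27.1 and 24.6 TPM in HA-TAZ libraries, were lowest there, while in controls they were at 29.4 and 30.4 TPM and differed by less than their spread.

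Transcripts of each gene were also compared, since total RNA holds unspliced and non-coding forms. The authors' deposited table held statistics for 56 of the 64 transcripts of the members. The effects of the 2 main transcripts of the RNA genes in the authors' deposited table, on the natural log scale, were 0.41 (SE 0.12) for ENST00000580625.1 of RN7SL1 and 0.60 (SE 0.17) for ENST00000490232.2 of RN7SL2. The third, ENST00000553637.1 of RN7SL1, was listed at 0.48 (SE 0.23) in the authors' deposited table. Its level was 653, 524 and 930 TPM in HA-TAZ 1 to 3 and 434, 509 and 627 TPM in controls a to c, a small part of the gene. For the proteins and receptor, 6 of 53 transcripts in the authors' deposited table had a q-value below 0.05 with a positive effect, and 1 with a negative one, where 5.68% of all 109487 transcripts with statistics had such a q-value in either direction.

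Those with a positive effect were the most abundant coding transcripts of SRP9 (0.18, SE 0.05) and SRPR (0.21, SE 0.06), a coding transcript of SRP72 (0.20, SE 0.06) that was not its most abundant, a coding and a non-coding transcript of SRP14 (0.25, SE 0.07 and 0.90, SE 0.25), and a coding transcript of SRPRB (0.16, SE 0.05), all in the authors' deposited table on the natural log scale. As deposited TPM, the transcripts of SRP9, SRPR, SRP72 and SRPRB had ratios of group means of 0.953, 0.985, 0.976 and 0.935, with overlap. Their direction therefore depended on the scale. The SRP14 transcripts were at 1.04 with overlap and 2.02 without. The one with a negative effect was a coding transcript of SRP19, at −0.42 (SE 0.13) in the authors' deposited table. Its ratio as deposited TPM was 0.516, without overlap.

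The share of a gene's TPM in coding transcripts needs no scaling either. It was 82.1%, 85.0% and 77.8% for SRP68 in HA-TAZ 1 to 3 and 72.0%, 75.4% and 77.0% in controls a to c, where the rest lay mainly in transcripts with retained introns, 14.2% and 21.0% on average. For SRPR it was 80.20%, 83.8% and 80.17% in HA-TAZ 1 to 3 and 72.3%, 79.6% and 80.16% in controls a to c, so that the groups touched. These 2 of the 8 genes had all HA-TAZ libraries above all controls, as had 23.9% of 9980 genes with several kinds of transcript. The share among the members was thus close to that background. Only 3.84% of the 9980 genes lay below, and their median difference was 2.27 points toward coding transcripts with HA-TAZ. The other members overlapped, and SRP14 and SRP19 had lower means in HA-TAZ libraries, at 89.9% against 93.9% and 75.7% against 80.6%. SRP9 had only coding transcripts.

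**Figure D3:**
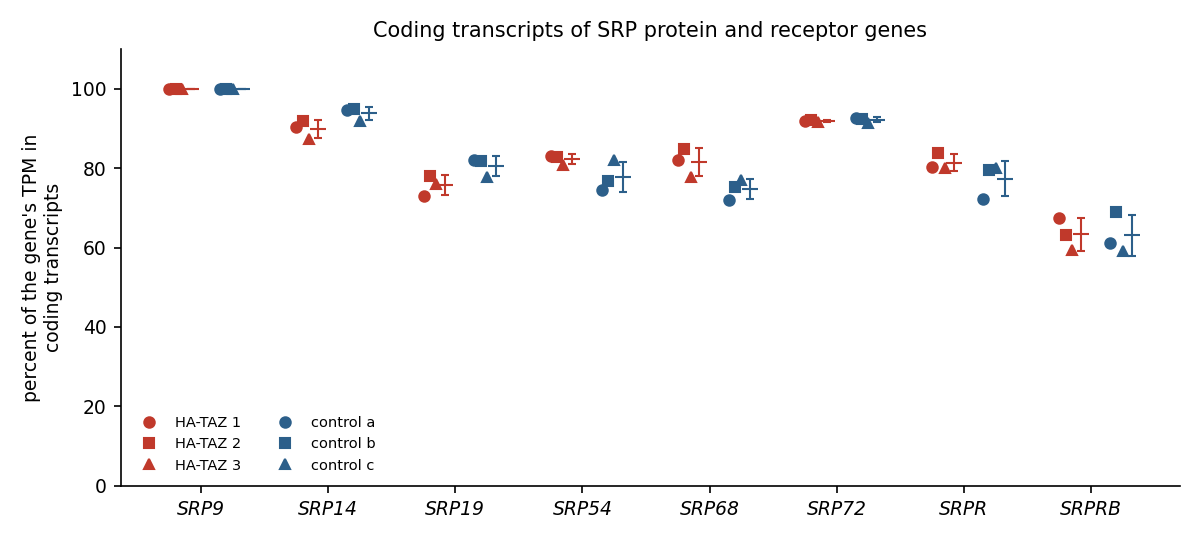
Percent of each gene's TPM that lies in transcripts annotated as coding in GENCODE 29, for the 8 protein and receptor genes in each library, with mean ± SD (n = 3). HA-TAZ points of SRP68 and SRPR lie above the controls, the highest control of SRPR almost touching them, and SRP14 and SRP19 have lower means in HA-TAZ libraries.

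GENCODE 29 places SRP19, SRPR, SRP54, SRP68 and SRPRB over other genes, among them REEP5, at 28.8 TPM on the opposite strand of SRP19, and FOXRED1, at 11.5 TPM on the opposite strand of SRPR. Values of these members are uncertain to the extent that reads of the partner were counted with them.

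The family of 7SL copies was examined next, since most of it resembles RN7SL1 but is not known to form the particle. The table holds 871 other gene IDs whose symbol starts with RN7SL, with 848 symbols, because 23 symbols have several IDs. Of these, 66 were listed at 0 in every library and 529 passed the filter on low values. Their summed TPM was 3916 to 4180 with HA-TAZ and 4273 to 4552 in controls, lower without overlap, while the scaled sums, 4350 to 4605 and 3788 to 4067, were higher without overlap.

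Among the 529 tested copies, 1 rose and 15 fell by limma's adjusted threshold, against 4.67% and 2.63% of all tested genes in the same directions. Their median log2 fold change was −0.22, and at an unadjusted p below 0.05 there were 6 upward and 98 downward. Of all 22651 tested genes 3759 were upward and 3200 downward at that level. The 15 gene IDs carry 14 symbols, since 2 IDs of RN7SL377P hold the same values. Scaled values lay above all controls in 6 of the 529 and below all controls in 114. Of all tested genes 20.2% lay above and 18.3% below in this sense. The one that rose was RN7SL3, at 1803, 1748 and 1575 TPM in HA-TAZ 1 to 3 and 1132, 1341 and 1160 TPM in controls a to c. Its scaled log2 fold change was 0.80 (SE 0.12), close to those of RN7SL1 and RN7SL2, with which it shares most of its sequence. Reads of those genes, which were chosen by this contrast, may be counted with RN7SL3, so its call is a description and supports nothing. RN7SL4P was at 205, 205 and 273 TPM in HA-TAZ 1 to 3 and at 139, 170 and 186 TPM in controls a to c, and did not pass, with a log2 fold change of 0.76 (SE 0.20). RN7SL5P was at 320, 296 and 311 TPM in HA-TAZ 1 to 3 and at 297, 300.5 and 280 TPM in controls a to c, with overlap as TPM and a scaled log2 fold change of 0.38 (SE 0.08), which did not pass.

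These 3 were the most abundant copies. The other 526, with a mean of at most 23.8 TPM, had 0 upward and 15 downward calls by limma. Of all tested genes 4.67% were called upward and 2.63% downward. At an unadjusted p below 0.05 by limma there were 3 upward and 98 downward among the 526. A sequence by the same symbol was found in GENCODE 29 for 381 of the 529. The same 3 shared at least 30% of their 31-base words with RN7SL1. The 66 other tested copies that shared any word had a median log2 fold change of −0.21, and the 312 that shared none had −0.21 too. Identity to RN7SL1 was 97.7% for RN7SL3, 85.7% for RN7SL4P and 85.0% for RN7SL5P, and the median over the other copies was 79.5%. Abundance and shared sequence went together in these copies, and reads of RN7SL1 and RN7SL2 that were given to a near-identical copy cannot be told apart from its own.

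**Figure D4:**
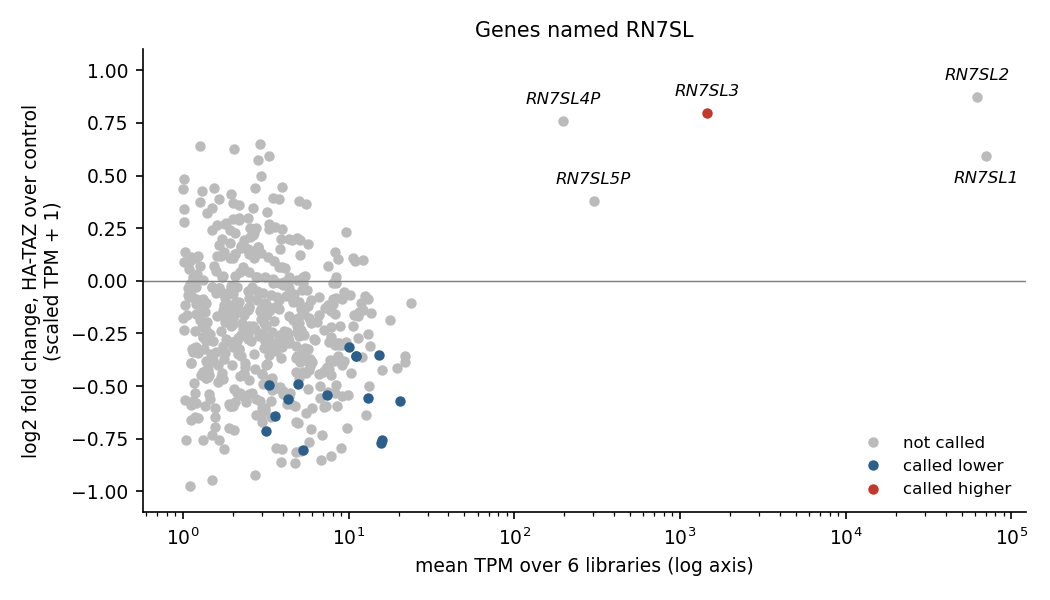
Log2 fold change (scaled TPM + 1, HA-TAZ over control) against mean TPM on a log axis for each tested gene named RN7SL, coloured by limma's call. The 5 most abundant genes lie above 0, and the 15 called lower are all below 23.8 TPM.

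Genes that the choice of members did not use were taken from lists of the same route. Of all 22651 tested genes, 3759 were upward and 3200 downward at an unadjusted p below 0.05 by limma, the background for these lists. Apart from the polymerase III RNAs, the lists hold protein genes. On the scaled values limma called 875 of the 11666 tested protein-coding genes higher and 254 lower, a larger share upward than over all genes. In the translocon list, the channel in the endoplasmic reticulum membrane and its helpers, 0 of 15 genes passed limma's adjusted threshold in either direction. At an unadjusted p below 0.05 there were 7 upward and 0 downward. SSR2, a subunit of the translocon-associated complex, was at 324 ± 7.70 and 289 ± 11.2 scaled TPM (SD, n = 3) in HA-TAZ libraries and controls, and HSPA5, the chaperone BiP, was at 323 ± 9.87 and 294 ± 7.68. Signal peptidase, which removes the signal sequence, had 0 of 6 genes past the threshold by limma and 0 at an unadjusted p below 0.05. Its most abundant genes SEC11C and SPCS2 had log2 fold changes of 0.09 (SE 0.08) and 0.11 (SE 0.05). Oligosaccharyltransferase, which adds N-glycans to entering chains, had 0 of 11 past limma's threshold, with 4 upward and 1 downward at an unadjusted p below 0.05, and OST4 and KRTCAP2 had 0.02 (SE 0.06) and 0.17 (SE 0.05). The medians of these 3 lists were 0.08, 0.09 and 0.14 scaled, and −0.20, −0.21 and −0.16 with TPM as deposited.

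Routes into the membrane that do not use the particle were described by 17 genes. By limma 4 rose and 0 fell on the scaled values, where 4.67% of all tested genes rose. With TPM as deposited 1 rose and 1 fell, where 261 of all 22651 tested genes rose and 3068 fell. Scaled values gave 12 upward and 0 downward at an unadjusted p below 0.05, where 3759 of all 22651 tested genes were upward and 3200 downward. The median log2 fold change was 0.25, or −0.03 as deposited. ASNA1, the ATPase that carries tail-anchored proteins, was at 50.6 ± 2.42 and 38.1 ± 1.47 scaled TPM (SD, n = 3), a log2 fold change of 0.40 (SE 0.05, adjusted p = 0.023 by limma). TMEM208, of the SND route, was at 31.1 ± 1.72 and 19.6 ± 2.47 scaled TPM, a log2 fold change of 0.65 (SE 0.10, adjusted p = 0.029 by limma). EMC10 and EMC4, subunits of the membrane insertase EMC, had log2 fold changes of 0.45 (adjusted p = 0.047 by limma) and 0.25 (adjusted p = 0.034 by limma). With TPM as deposited TMEM208 kept its call at 0.36, ASNA1 and EMC10 lost theirs at 0.10 and 0.16, and EMC4 turned to −0.05. EMC7, among the most abundant genes of the list, was at 0.08 (SE 0.09). SND1, at −0.07 (SE 0.05), was in the list by its name, but the human gene encodes a nuclease with a tudor domain and no part of the SND route. Without it 4 of 16 rose. Whether these routes differed from the particle's own genes was not tested.

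Polymerase III makes 7SL RNA. Of 31 genes of the polymerase and its factors, 3 rose and 0 fell by limma on the scaled values, where 4.67% of all tested genes rose. The list also holds factors of other promoters and a repressor. With TPM as deposited 0 rose and 1 fell, where 261 of all 22651 tested genes rose and 3068 fell. Scaled values gave 13 upward and 1 downward at an unadjusted p below 0.05, where 3759 of all 22651 tested genes were upward and 3200 downward. GTF3C6, a subunit of the initiation factor TFIIIC, was at 86.8, 85.4 and 89.0 scaled TPM in HA-TAZ 1 to 3 and at 61.3, 65.1 and 59.5 in controls a to c, a log2 fold change of 0.49 (SE 0.05, adjusted p = 0.011 by limma). SNAPC1, a subunit of the complex that binds promoters of small nuclear RNA genes, was at 8.65 ± 0.246 and 5.45 ± 0.430 scaled TPM (SD, n = 3), a log2 fold change of 0.58 (SE 0.08, adjusted p = 0.021 by limma). GTF3C4, also of TFIIIC, had 0.29 (SE 0.06, adjusted p = 0.045 by limma). MAF1, a repressor of polymerase III and the second most abundant gene of the list, was at 83.3 ± 5.50 and 60.2 ± 8.95 scaled TPM, 0.47 (SE 0.12), and did not pass. The 3 called genes lost their calls as deposited TPM, at 0.19 for GTF3C6, 0.32 for SNAPC1 and 0.01 for GTF3C4. The median of the list was 0.16, and −0.13 as deposited.

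Other RNAs of polymerase III were compared with 7SL, although RNAs this short are captured unevenly by libraries of total RNA. Of 13, 10 passed the filter, 1 of them (RNY4) only through the HA-TAZ libraries. Of the other 9, limma called 0 in either direction. At an unadjusted p below 0.05 there were 4 upward and 0 downward, against 3759 and 3200 of all 22651 tested genes. RNY4, a Y RNA, was at 6.59, 5.64 and 18.8 TPM in HA-TAZ 1 to 3 and listed at 0 in all controls, so its call is not counted and no fold is given. RPPH1, the RNA of RNase P, was at 19371, 17180 and 19706 TPM in HA-TAZ 1 to 3 and 13000, 15749 and 17635 TPM in controls a to c, overlapping as TPM, with a scaled log2 fold change of 0.59 (SE 0.22). RMRP had 0.74 (SE 0.19), higher without overlap on both scales, and did not pass. RN7SK had 0.20 (SE 0.35). The median of these 9 genes was 0.27, or 0.01 with TPM as deposited.

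The unfolded protein response, which raises folding capacity of the endoplasmic reticulum, was mixed. Of 22 genes, 1 rose and 2 fell by limma on the scaled values, where 4.67% of all tested genes rose and 2.63% fell. With TPM as deposited 0 rose and 5 fell, where 261 of all 22651 tested genes rose and 3068 fell. Scaled values gave 3 upward and 2 downward at an unadjusted p below 0.05, where 3759 of all 22651 tested genes were upward and 3200 downward. The median was 0.03, or −0.27 with TPM as deposited. HSP90B1, the chaperone GRP94, was at 312 ± 8.35 and 252 ± 6.54 scaled TPM (SD, n = 3), a log2 fold change of 0.31 (SE 0.04, adjusted p = 0.024 by limma), which was lost at 0.01 with TPM as deposited. ERN1, the stress sensor IRE1, was at 63.1 ± 3.80 and 79.9 ± 2.84 scaled TPM, and fell by 0.34 on the log2 scale (SE 0.06, adjusted p = 0.036 by limma). CREB3L2, a transcription factor cleaved in response to stress of the endoplasmic reticulum, fell by 0.23 (SE 0.04, adjusted p = 0.031 by limma). ERN1 and CREB3L2 kept their calls as deposited TPM, at −0.63 and −0.53. The most abundant genes, CALR and CANX, lectin chaperones, had 0.13 (SE 0.05) and 0.04 (SE 0.08).

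**Figure D5:**
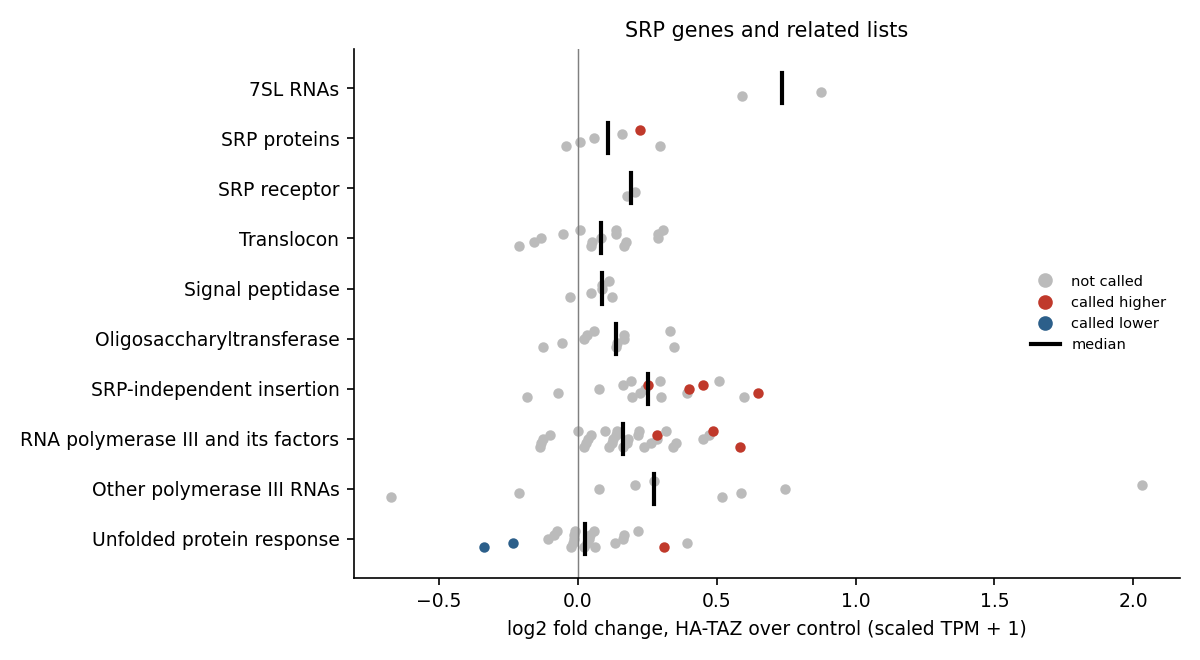
Log2 fold change (scaled TPM + 1, HA-TAZ over control) of each tested gene of the particle and of the related lists, with black lines at the medians and colours for limma's calls. The 7SL genes lie at 0.59 and 0.87, above every SRP protein gene, and RNY4, listed at 0 in controls, is left out.

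Over all related lists without RNY4 111 genes were tested. On the scaled values limma called 8 of them higher and 2 lower, against 4.67% and 2.63% of all tested genes. The counts under other settings below include RNY4, with which the scaled values gave 9 higher and 2 lower of 112. The directions turned over with TPM as deposited, at 3 higher and 11 lower, and with a common sum that left out RN7SL genes and RN7SK, at 4 higher and 10 lower. All 22651 tested genes turned in the same way, from 1057 higher and 595 lower. They gave 261 and 3068 as deposited, and 334 and 2846 with the common sum. Leaving out 1 library at a time gave 0 to 4 calls in place of 11, with 0 without HA-TAZ 1 and 35 to 49 genes at an unadjusted p below 0.05. The 1 call left without HA-TAZ 2, and the 1 left without HA-TAZ 3, was RNY4, which passed the filter only through the HA-TAZ libraries.

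Finally, genes were ranked by how closely they followed the 7SL RNAs over the 6 libraries, among 9011 genes of mean TPM at least 10. The highest Pearson correlations of scaled log2 values with RN7SL1 plus RN7SL2 were 0.999 for RAD9A, ST6GALNAC4 and TTLL12 and 0.998 for RMRP and VPS16. RMRP, the RNA of RNase MRP and itself a product of polymerase III, was at 4774, 4288 and 4765 TPM in HA-TAZ 1 to 3 and at 2815, 3655 and 3773 TPM in controls a to c, with no overlap. These points share the library factors and fall into 2 groups, so the ranking is a description. RAD9A and VPS16 were lower in HA-TAZ libraries than in controls without overlap as deposited TPM, RAD9A at 13.2 against 14.3 TPM, opposite to 7SL, while ST6GALNAC4, TTLL12 and RMRP were higher without overlap. Among the members' proteins SRPR ranked highest, at 280 with a correlation of 0.98, although its deposited TPM was lower with HA-TAZ, and SRP54 lowest, at 5910 with −0.26.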

How the data were processed

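Members and gene lists were chosen with earlier results of these data known. The authors deposited TPM for 215170 transcripts in 6 libraries, and a table of their transcript comparison. Per the file headers that table holds p-values and q-values by the authors, an effect and a mean on a natural log scale, and a standard error, used as a deposited score. The submitters' processing notes name kallisto 0.46.0, sleuth 0.30.0 and GRCh37, without roles. The annotation release is not given in the sources used here.

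Gene values are sums of TPM over the transcripts that the deposited table pairs with a gene ID. They were divided by median-of-ratios factors over 21512 genes without a 0. The 22651 genes that averaged 1 TPM or more were tested by limma 3.58.1 (R 4.3.3) with a trend, two-sided, on log2(scaled TPM + 1). The threshold was 0.05 after Benjamini-Hochberg adjustment over these genes. Fold changes are on this scale, which understates low genes. Transcript types and the transcripts compared for identity came from GENCODE 29, aligned with Biopython 1.88. The 7SL sequences are not reported here. Members and genes past the threshold were named, with the 2 most abundant of each related list, the 3 most abundant 7SL copies and the 5 genes most correlated with 7SL. Alternatives covered the pseudocount, filter, scaling, trend and leaving out each library. The depth per library is unknown. A count-based test was not used, since TPM holds no counts.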

Additional observations from a re-analysis of the deposited data

How the results depend on the processing

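No paired analysis was possible because no label says which control column is which wild type sample. Depth is unknown, so only the spread of 3 libraries limits each value. The 1652 genes called by limma became 691 with no filter, 756 without the trend, 3329 with TPM as deposited (7.84% of them higher, against 64.0%) and 3180 after rescaling to a common sum without RN7SL genes and RN7SK (10.5% higher). Factors from protein-coding genes gave 1520 calls, 43.4% higher. Leaving out 1 library gave 118 to 470. The 11 calls among related genes, counted here with RNY4, became 6 with no filter, 19 at a mean TPM of at least 5, 5 without the trend, and 0 to 4 without 1 library. From 9 higher and 2 lower they turned to 3 and 11 with TPM as deposited and to 4 and 10 with the common sum. RNY4 was 1 of the calls under each of these settings, except without HA-TAZ 1 and without any 1 control. The 1 call among SRP protein and receptor genes became 2 at a mean TPM of at least 5, where SRP14 passed too, and 0 with no filter, with the common sum, with protein-coding factors, without the trend and without any 1 library. With TPM as deposited the 1 call was SRP19, lower by a log2 fold change of −0.34.

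The log2 fold change of RN7SL1 plus RN7SL2, 0.72, was 0.42 with TPM as deposited and 0.52 to 0.82 without 1 library. It kept its sign under every alternative run. The median over the SRP protein and receptor genes, 0.17, was −0.13 with TPM as deposited, −0.0715 with the common sum, 0.0948 with protein-coding factors and 0.14 to 0.19 without 1 library. With TPM as deposited the log2 fold changes turned to −0.0743 for SRP9, −0.00297 for SRP14, −0.28 for SRP54, −0.24 for SRP68, −0.14 for SRP72, −0.11 for SRPR, −0.0883 for SRPRB and −0.0452 for EMC4. With the common sum they were −0.0190 for SRP9, −0.23 for SRP54, −0.18 for SRP68, −0.0836 for SRP72, −0.0593 for SRPR and −0.0338 for SRPRB. With protein-coding factors SRP54 was −0.0656 and SRP68 −0.0164. Without 1 library SRP19 lay between −0.0957 and 0.00676, above 0 without HA-TAZ 2 or control b, and SRP54 between −0.0703 and 0.0552, below 0 without HA-TAZ 1 or control c. The alternatives to scaling apply the same factor to every gene of a library, although fold changes of low genes shift less, since 1 is added before the log. The causes of the other changes were not tested.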
